A study of Homo sapiens with 4 samples.

Results

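Genes of the tumour necrosis factor (TNF) superfamily were followed in IMR90, a line of human fetal lung fibroblasts, after knockdown of HMGB1, a nuclear chromatin protein that is also secreted as an alarm signal. The group held 10 genes picked by name and found by identifier on the primary chromosomes, 6 ligands (TNF, TNFSF4, TNFSF9, TNFSF10, TNFSF13B and TNFSF15) and 4 receptors (TNFRSF1A, TNFRSF1B, TNFRSF11B and TNFRSF21), out of 63677 gene rows in the count files. These members, like the wider gene lists below, were chosen with earlier results of these data known. Poly(A) RNA was sequenced from 2 control libraries, transfected with non-targeting control siRNA (NTC), and 2 knockdown libraries, transfected with siRNA against HMGB1, all using RNAiMAX and all collected at 72 h. In each group 1 library came from the isolate I90-10 and 1 from the isolate I90-79, both grown in the same medium with serum. The study's methods name 2 different siRNAs for IMR90 without saying which library received which, so the effect of the target and that of an siRNA cannot be told apart.

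Ligands of this superfamily are trimeric proteins, on the cell surface or shed from it, and their receptors carry cysteine-rich repeats outside the cell. Receptors with a death domain recruit adaptors such as TRADD and FADD, other receptors bind TRAF proteins, and both routes can lead to NF-κB and JNK signalling or, through caspase-8, to cell death. Fibroblasts are known mainly as responders to TNF made by immune cells, and they make osteoprotegerin and some of the ligands themselves.

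The libraries held between 29861687 and 35317010 counts assigned to genes. HMGB1 was at 181 and 237 CPM (counts scaled to the size of the library with edgeR's TMM factors) in the control libraries of I90-10 and I90-79, and at 16.0 and 18.9 CPM in the knockdown libraries, a log2 fold change of −3.59 (standard error 0.19, edgeR adjusted p = 0.0075). Without knockdown replicate 1 it was −3.47, with an adjusted p of 0.049, and without knockdown replicate 2 it was −3.71, with an adjusted p of 0.032. Fibroblast markers summed to between 23996 and 45839 CPM, with the 2 libraries of I90-10 highest, and 10 of 10 were expressed. Markers of leukocytes, the usual source of several of these ligands, summed to between 0.163 and 0.204 CPM in control and between 0.256 and 0.554 CPM in knockdown libraries, with CD3E and TYROBP at 0 throughout. Endothelial markers summed to 2.18 to 2.23 CPM in control and 3.81 to 4.88 CPM in knockdown libraries with CDH5 at 0, and epithelial markers to 58.6 to 67.2 and 78.5 to 98.6 CPM with KRT5 at 0. The higher sums came mostly from VWF and KRT18, while TIE1 and KRT8 were lower in both knockdown libraries. Their part in the results was not tested. In such bulk samples, fewer cells that make an RNA and less of it per cell cannot be told apart.

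Differences were tested with edgeR's quasi-likelihood test on 15398 genes, and calls were made at the thresholds of the study, an adjusted p below 0.01 and a log2 fold change beyond 0.6 in either direction. Without a term for the isolate 0 of the 9 tested members were called, against 0.0649% of all genes called up and 0.136% called down. The smallest adjusted p among them was 0.033, that of TNFSF15, and before adjustment 4 members passed 0.05, as did 28.3% of all genes. Once the isolate entered as a replicate block, TNFSF4 fell and TNFSF15 and TNFRSF21 rose, 2 genes up and 1 down, where 6.68% of all genes were called up and 7.84% down. The same 3 were called with RUVs and DESeq2, the methods that the study names, which called 4.94% of all genes up and 5.4% down. RUVs was rewritten here with 1 factor, and the study does not give its number of factors. The median log2 fold change of the 9 tested members was 0.07, beside −0.01 over all genes, so the group did not move one way. TNF was the member that could not be tested.

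**Figure D1:**
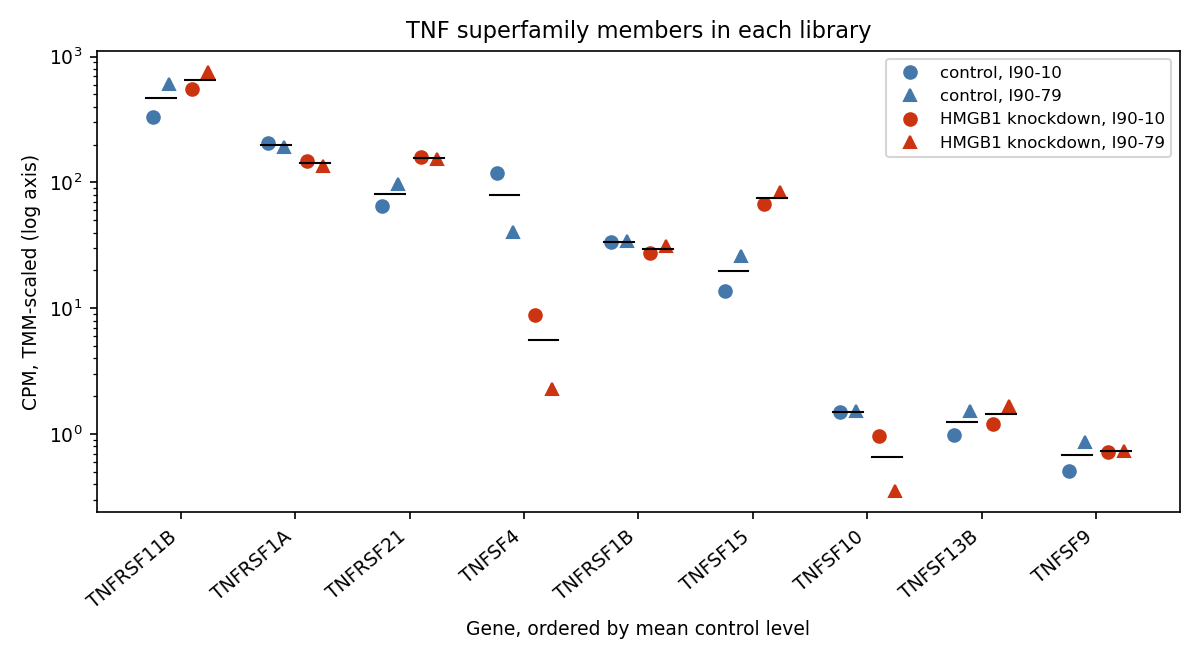
Level of the 9 tested members in each of the 4 libraries, in CPM on a log axis; circles are I90-10, triangles are I90-79, and black bars are group means (n = 2). TNFSF4 sits between 40.3 and 119 CPM in control and between 2.31 and 8.90 CPM in knockdown libraries, TNFSF15 and TNFRSF21 sit higher in both knockdown libraries, and TNF is not drawn because it is at 0 in 2 libraries.

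TNF itself, the founding ligand (ENSG00000232810, chromosome 6, 31543344 to 31546113, hg19), was practically absent. It had 0 and 3 counts in control and 0 and 1 counts in knockdown libraries. All 4 lie at or under 3 counts, the limit below which a level cannot be told from 0 here (0.0814 to 0.104 CPM), so no fold change is given. LTA, the related ligand that binds the same receptors, had 0 and 1 counts in control and 0 and 0 in knockdown libraries.

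TNFSF4 (OX40 ligand, ENSG00000117586, chromosome 1, 173152873 to 173176452, minus strand, hg19) costimulates T cells that carry its receptor. It was at 119 CPM (3488 counts) in the I90-10 control and 40.3 CPM (1485 counts) in the I90-79 control. In the knockdown libraries it was at 8.90 CPM (257 counts) and 2.31 CPM (72 counts). Both knockdown libraries lay well below both controls, and in either group I90-10 was the higher isolate. The log2 fold change was −3.83 (standard error 0.80, edgeR adjusted p = 0.050), a level 14.2-fold lower, and with the replicate block it was −3.89 (standard error 0.14, adjusted p = 9.8e-06). By size of change TNFSF4 ranked 10 from the lowest among 15398 genes in the fit without the isolate. The size rested on single libraries, at 7.23-fold lower without control replicate 1 (log2 fold change −2.85), 34.5-fold without knockdown replicate 1 (−5.11) and 8.90-fold without knockdown replicate 2 (−3.15), and it was 8.09-fold with RUVs and DESeq2. Within I90-10 the log2 ratio was −3.74 (95% counting interval −3.93 to −3.55) and within I90-79 it was −4.13 (−4.49 to −3.79). These intervals are exact binomial ones and cover counting error only. The 2 control libraries differed from each other by −1.56 (−1.65 to −1.47), I90-79 over I90-10, and the knockdown libraries by −1.95 (−2.35 to −1.57). The receptor of TNFSF4, TNFRSF4 (OX40), had 0 and 0 counts in control and 7 and 2 counts in knockdown libraries, too few for the test.

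The 3′ UTR of TNFSF4 is shown at 3 places because it holds 3 copies of a 6-base word, GCAGTT, that went with lower levels after knockdown across the genes of these same libraries. The word was picked from these data, so what it does here is not independent evidence. The windows run 5′ to 3′ on the transcript with the word in capitals, read from the hg19 genome on the minus strand at chr1:173155125-173155154, chr1:173153787-173153816 and chr1:173153089-173153118.
TNFSF4 copy 1: gttaaattgattGCAGTTtgcatattgcct
TNFSF4 copy 2: ttctgcaaaattGCAGTTactcagtgagtg
TNFSF4 copy 3: agtccttcaagaGCAGTTatcaattgttag
TNFSF10, TNFSF15 and TNFRSF1A hold 1 copy each, shown for comparison because these genes did not share a direction, from chr3:172223803-172223832, chr9:117547957-117547986 and chr12:6438122-6438151, all on the minus strand.
TNFSF10: cactaaaagatcGCAGTTtgcctggtgcag
TNFSF15: ggctacagagttGCAGTTacaaggttgccc
TNFRSF1A: cacagtgcataaGCAGTTttttttgttttt
The other 6 members hold 0 copies in their longest annotated 3′ UTR.

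Among 12556 tested genes with a 3′ UTR of at least 100 bases, 37.9% held the word and 6.31% held 3 or more copies. The median log2 fold change was 0.07 for the 7798 genes with 0 copies, −0.08 for 2842 genes with 1 copy, −0.21 for 1124 genes with 2 and −0.28 for 792 genes with 3 or more. Genes with more copies also had longer 3′ UTRs, with medians from 1004 bases for 0 copies to 5369 bases for 3 or more. Genes with a 3′ UTR of 2000 to 4000 bases include TNFSF4, at 2785 bases. Their medians ran from 0.06 for 0 copies to −0.48 for 3 or more. Of the latter 36.4% were called down with the replicate block, against 4.70% of the former. TNFSF4, at −3.83, lay below the 5th percentile of the genes in this range with 3 or more copies, −2.16. Because the word was picked from these same libraries for going with lower levels, such steps are no test of it. This holds within a range of lengths as well. TNFSF15 rose with 1 copy in a 3′ UTR of 5800 bases. The siRNA sequences are not given in the sources used here, and the part of the word in the change of TNFSF4 was not tested.

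**Figure D2:**
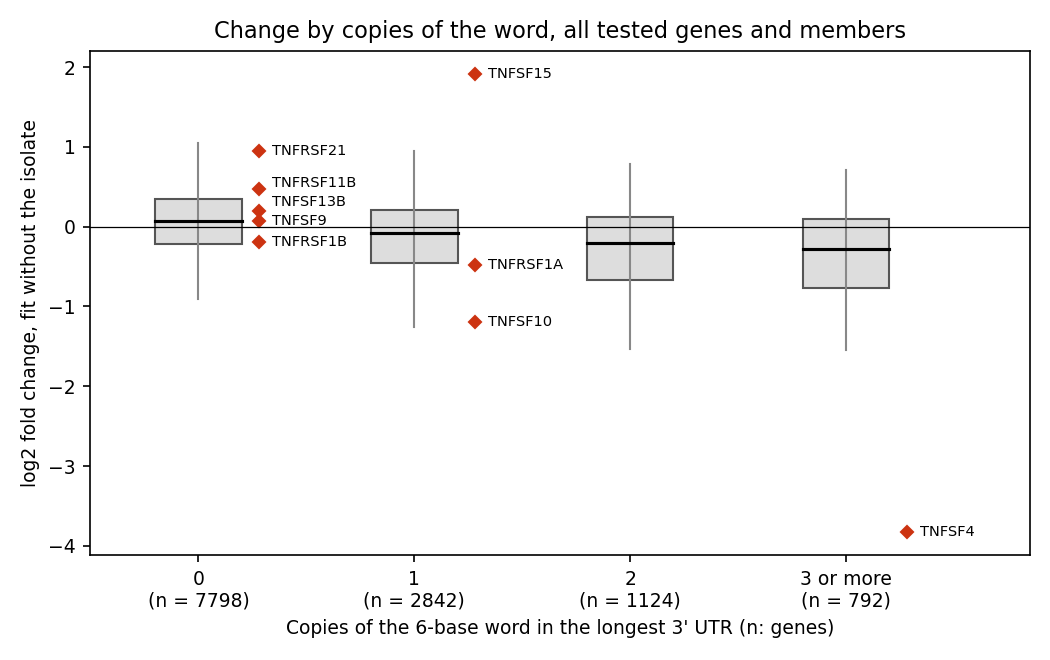
Log2 fold change after knockdown, from the fit without the isolate, against the copies of the 6-base word in each gene's longest 3′ UTR; boxes span the 25th to the 75th percentile, lines the 5th to the 95th, black bars are medians over all tested genes, and diamonds are members. The medians step down from 0.07 to −0.28, TNFSF4 lies far below its box at −3.83, and TNFSF15 lies above its own at 1.92. The word was picked from these same data.

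TNFSF15 (TL1A, ENSG00000181634, chromosome 9, 117546915 to 117568406, minus strand, hg19) costimulates T cells and is also made by endothelial and stromal cells. It was at 13.7 and 26.3 CPM in the control libraries of I90-10 and I90-79 (402 and 968 counts) and at 67.4 and 83.9 CPM in the knockdown libraries (1946 and 2621 counts). Both knockdown libraries lay above both controls. The log2 fold change was 1.92 (standard error 0.33, edgeR adjusted p = 0.033), 3.78-fold higher, and with the replicate block it was 1.97 (standard error 0.15, adjusted p = 1.0e-04). Within I90-10 the log2 ratio was 2.30 (95% counting interval 2.14 to 2.46) and within I90-79 it was 1.68 (1.57 to 1.78). The intervals of the isolates did not overlap, although with 1 library for each isolate and group the difference between them could not be tested. I90-79 exceeded I90-10 by 0.94 (0.77 to 1.11) in control and by 0.32 (0.23 to 0.40) in knockdown libraries.

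Of the known partners of TNFSF15, the death-domain receptor TNFRSF25 (DR3) was at 2.42 and 1.90 CPM in control and 2.01 and 1.18 CPM in knockdown libraries, which overlapped (log2 fold change −0.43, standard error 0.37, edgeR adjusted p = 0.49). The soluble decoy TNFRSF6B had 0 counts in 4 libraries, which allows up to 3 counts in each. All of its annotated sequence is shared with the read-through gene RTEL1-TNFRSF6B, so a count of unique reads says little of it. The promoter of TNFSF15 is shown because it was the only member promoter in which a searched motif was found. It held an AP-1 motif, TGANTCA, at position −120 from the start site, given in capitals from chr9:114792634-114792660 on the minus strand (RefSeq sequence, GRCh38.p14).
TNFSF15 promoter: ctctttcttcTGAGTCAccctgtcctt
Windows of 250 bases before to 50 bases after a start were at hand for 9 of the 10 members, and 7.71% of all 35116 windows held this motif on either strand. The NF-κB consensus, held by 11.3% of windows, was found in 0 member windows. A match is a stretch of letters and not evidence of binding, and a missing match says only that the letters are not in the window.

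TNFSF10 (TRAIL, ENSG00000121858, chromosome 3) kills sensitive cells through death receptors. It was low, at 1.5 and 1.52 CPM in control (44 and 56 counts) and at 0.970 and 0.352 CPM in knockdown libraries (28 and 11 counts). Both knockdown libraries lay below both controls, but the gene was not called (log2 fold change −1.20, standard error 0.52, edgeR adjusted p = 0.21; with the replicate block −1.27 and 0.060). Within I90-10 the log2 ratio of −0.63 had a counting interval of −1.37 to 0.09, which includes 0, and within I90-79 the ratio of −2.11 had one of −3.19 to −1.16. Leaving out knockdown replicate 1 gave −2.09 and leaving out knockdown replicate 2 gave −0.63, so the size turned on those libraries.

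Of the 4 receptors of TNFSF10 on the cell surface, the death receptor TNFRSF10B was the highest, at 577 and 631 CPM in control and 515 and 527 CPM in knockdown libraries (log2 fold change −0.21, edgeR adjusted p = 0.34). The other death receptor, TNFRSF10A, was at 7.22 and 10.7 CPM and at 12.4 and 12 CPM (0.44, adjusted p = 0.28). The decoy TNFRSF10D, which lacks a working death domain, was at 205 and 223 CPM and at 161 and 167 CPM (−0.38, adjusted p = 0.11). The decoy TNFRSF10C, anchored in the membrane by a lipid, was at 7.80 and 6.81 CPM and at 3.25 and 2.53 CPM, and fell with the replicate block (log2 fold change −1.34, edgeR adjusted p = 0.0015; without it −1.34 and 0.037). Its value is uncertain, since 28% of the 50-base pieces of its transcripts occur in other annotated genes.

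TNFSF13B (BAFF, ENSG00000102524, chromosome 13), a survival factor of B cells, was at 0.987 and 1.52 CPM in control and 1.21 and 1.67 CPM in knockdown libraries. The groups overlapped, and the log2 fold change of 0.19 (standard error 0.38, edgeR adjusted p = 0.78) was smaller than its error. Its receptors were near or at 0, with 0 counts of TNFRSF13B in 4 libraries and at most 1 count of TNFRSF13C and of TNFRSF17 in any library. TNFSF9 (4-1BB ligand, ENSG00000125657, chromosome 19), another T cell costimulator, was at 0.511 and 0.868 CPM in control and at 0.727 and 0.736 CPM in knockdown libraries, 15 to 32 counts a library. Its groups overlapped too (log2 fold change 0.07, standard error 0.43, edgeR adjusted p = 0.93), and the counting intervals of both isolates included 0. Its receptor TNFRSF9 was at 1.70 and 1.0 CPM and at 0.658 and 0.544 CPM (−1.16, standard error 0.42, adjusted p = 0.15).

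Among the 4 member receptors, TNFRSF21 (death receptor 6, ENSG00000146072, chromosome 6, 47199268 to 47277641, minus strand, hg19), which carries a death domain, had the largest change. It was at 65.5 and 96.4 CPM in the control libraries of I90-10 and I90-79 and at 160 and 154 CPM in the knockdown libraries. Both knockdown libraries lay above both controls and close to each other. The log2 fold change was 0.95 (standard error 0.20, edgeR adjusted p = 0.050), 1.94-fold higher, and with the replicate block it was 0.98 (standard error 0.14, adjusted p = 0.0017). The log2 ratio was 1.29 (95% counting interval 1.21 to 1.36) in I90-10 and 0.68 (0.61 to 0.74) in I90-79. I90-79 was 0.56 (0.48 to 0.64) above I90-10 in control, and the interval of the same difference in knockdown libraries, −0.11 to 0.01, included 0.

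TNFRSF1A (TNFR1, ENSG00000067182, chromosome 12, 6437923 to 6451280, minus strand, hg19) is the death-domain receptor through which soluble TNF mainly acts. It was at 206 and 190 CPM in control and at 149 and 135 CPM in knockdown libraries. The log2 ratio of I90-79 to I90-10 was −0.11 (95% counting interval −0.16 to −0.06) in control and −0.13 (−0.20 to −0.07) in knockdown libraries. Both knockdown libraries lay below both controls. The log2 fold change was −0.48 (standard error 0.12, edgeR adjusted p = 0.072), 1.39-fold lower. With the replicate block it was −0.48 with an adjusted p of 0.0055, past the p threshold but under the fold threshold, so that it was not called in either fit. The isolates gave −0.47 (95% counting interval −0.52 to −0.41) and −0.49 (−0.55 to −0.44), which overlap.

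TNFRSF1B (TNFR2, ENSG00000028137, chromosome 1), the receptor without a death domain that binds membrane TNF well, was at 33.7 and 34 CPM in control and at 27.7 and 31.3 CPM in knockdown libraries. The groups did not overlap, but the log2 fold change of −0.20 (standard error 0.13) was not called (edgeR adjusted p = 0.36, and 0.19 with the replicate block). In I90-79 the counting interval of −0.24 to 0.01 included 0.

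TNFRSF11B (osteoprotegerin, ENSG00000164761, chromosome 8) is secreted and acts as a decoy for TNFSF11 (RANKL) and TNFSF10. It was at 331 and 610 CPM in the control libraries of I90-10 and I90-79 and at 549 and 758 CPM in the knockdown libraries. The groups overlapped, since the I90-10 knockdown library lay below the I90-79 control, while each isolate was higher after knockdown, by 0.73 (95% counting interval 0.69 to 0.77) and 0.31 (0.29 to 0.34) on the log2 scale. The log2 fold change was 0.47 (standard error 0.33, edgeR adjusted p = 0.40), and 0.52 (standard error 0.12, adjusted p = 0.013) with the replicate block, not called in either fit. Without control replicate 1 it was 0.10 and without control replicate 2 it was 0.98. TNFSF11 had 0 and 1 counts in control and 0 and 4 counts in knockdown libraries.

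**Figure D3:**
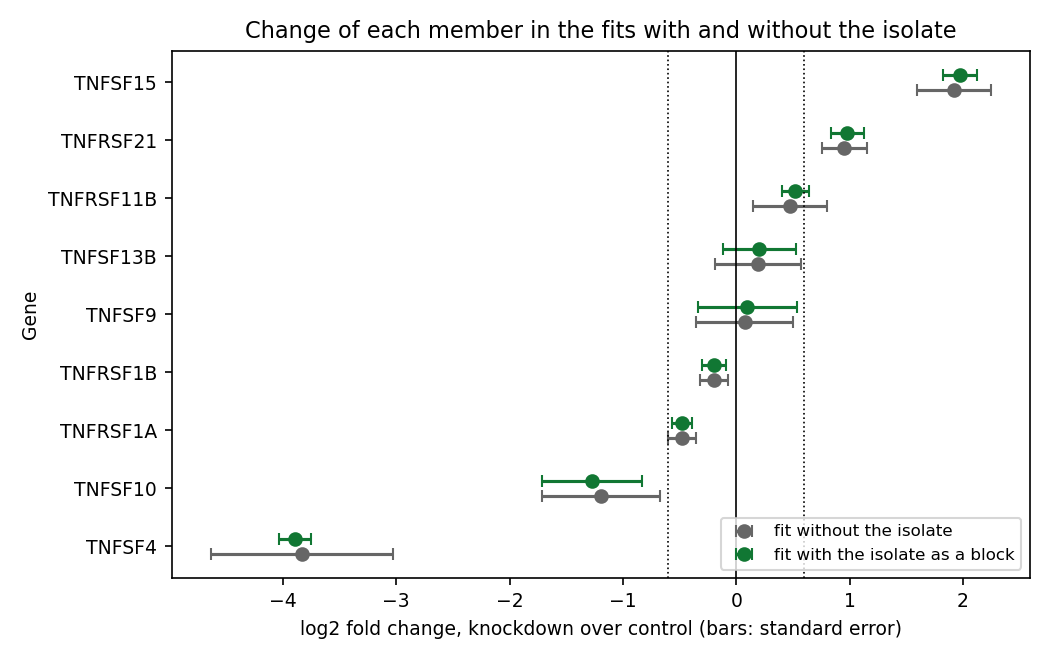
Log2 fold change of the 9 tested members, knockdown over control, in the fit without the isolate (grey) and with it as a block (green), with standard errors; dotted lines mark the fold threshold of 0.6 on either side. The estimates stay in place between fits while the standard error of TNFSF4 goes from 0.80 to 0.14 and that of TNFSF15 from 0.33 to 0.15.

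Set side by side, 2 members lay above and 4 below without overlap between the groups, where 29.8% of all tested genes lay above and 30.2% below. Of the 9 tested members, 4 were higher in both isolates, 4 were lower in both, and TNFSF9 moved in opposite directions. Over all tested genes 38.9% were higher and 39.4% lower in both isolates, so the members' count lies near that of any gene.

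**Figure D4:**
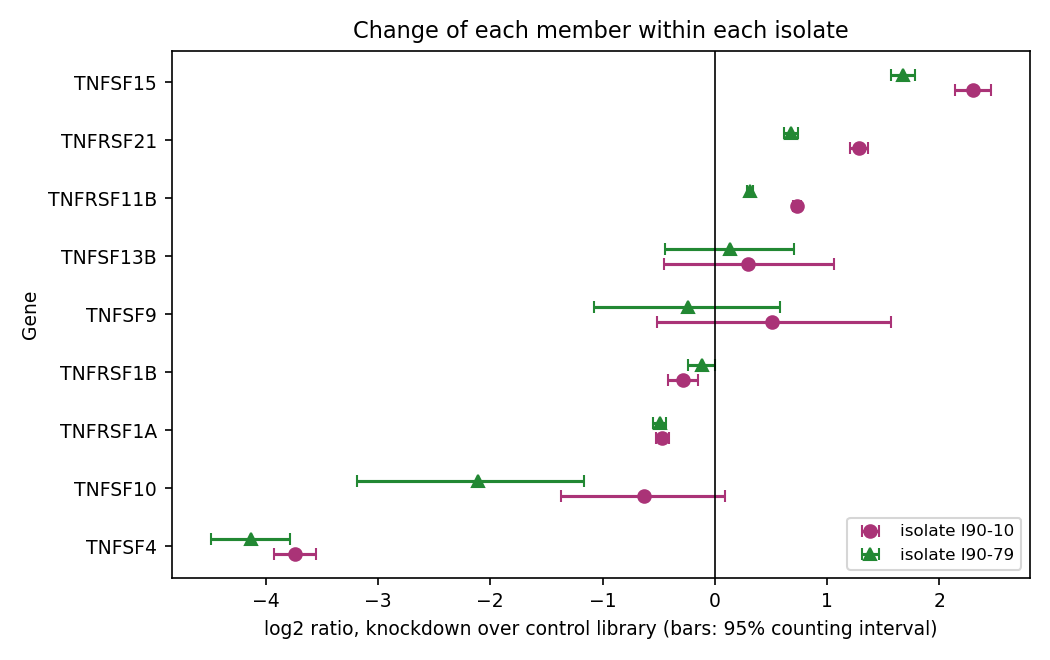
Log2 ratio of the knockdown to the control library within I90-10 (circles) and within I90-79 (triangles) for each tested member, with 95% counting intervals. TNFSF4 lies near −4 in both isolates, TNFRSF1A lies at −0.47 and −0.49, and TNFSF15, TNFRSF21 and TNFRSF11B lie further right in I90-10.

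Levels of different genes were compared per kilobase of exon (RPKM, from the TMM-scaled CPM). In control libraries TNFRSF11B was the highest member at 166 ± 69.8 RPKM (SD, n = 2), followed by TNFRSF1A at 49.4 ± 2.67 RPKM. TNFRSF21, at 22.5 ± 6.09 RPKM, and TNFSF4, at 20.2 ± 14.1 RPKM, did not differ beyond their spread, with TNFSF4 above TNFRSF21 in I90-10 (30.1 and 18.2 RPKM) and below it in I90-79 (10.2 and 26.8 RPKM). TNFSF4 was the highest of the member ligands in control libraries, above TNFSF15 at 2.53 ± 1.13 RPKM. TNFRSF1B lay between them at 8.99 ± 0.05 RPKM, and was below TNFSF4 in both isolates. TNFSF10, TNFSF9 and TNFSF13B lay close together, at 0.434, 0.416 and 0.410 RPKM, and could not be ordered. In knockdown libraries the order of TNFSF4 and TNFSF15 was turned, with TNFSF15 at 9.59 ± 1.48 RPKM and TNFSF4 at 1.42 ± 1.18 RPKM. TNFRSF21, at 43.6 ± 1.07 RPKM, then lay above TNFRSF1A, at 35.5 ± 2.32 RPKM, and TNFRSF11B stayed the highest at 231 ± 52.2 RPKM.

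The other 37 genes of the superfamily were looked at as a list. Of these 18 were tested, 3 of 12 ligands and 15 of 25 receptors, and 13 had no more than 3 counts in any library. The median log2 fold change of the 18 was −0.28. Of them 14 (77.8%) lay below 0 and 11 (61.1%) were lower in both isolates, against 50.4% and 39.4% of all genes. Without the isolate 0 were called, and the unadjusted p was below 0.05 for 6 genes, all of them lower. Over all genes 28.3% passed that limit in either direction. The fit with the replicate block called 0 up and 3 down (16.7%, beside 7.84% of all genes), all receptors. RUVs and DESeq2 called 3 down as well, beside 5.4% of all genes. In both these were TNFRSF10C, described above, FAS and EDA2R. FAS, the death receptor of FASLG, was at 85.7 and 78.1 CPM in control and at 41.4 and 52.7 CPM in knockdown libraries (log2 fold change −0.80, edgeR adjusted p = 0.044, and −0.81 and 0.0026 with the block). Of the exonic bases of FAS, 12.1% are shared with ACTA2 on the opposite strand, and the strand setting of the counts is not known. EDA2R, a receptor for a form of ectodysplasin and a known p53 target, was at 34.7 and 32.8 CPM and at 20.3 and 19.2 CPM (−0.77, adjusted p = 0.029, and −0.77 and 0.0013).

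**Figure D5:**
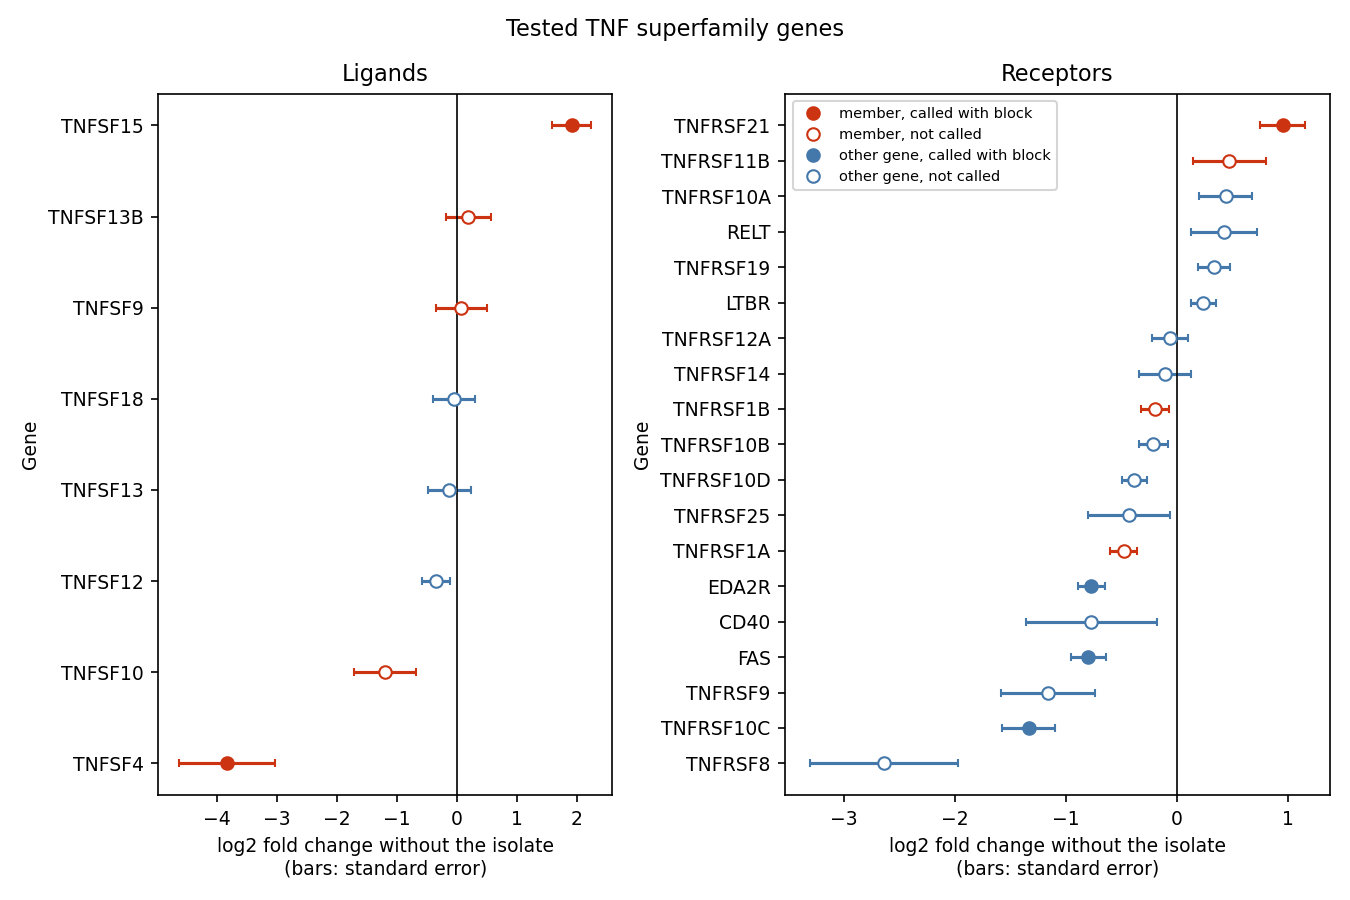
Log2 fold change with its standard error, from the fit without the isolate, for each tested ligand (left) and receptor (right) of the superfamily; red marks members, blue the other genes, and filled points were called with the replicate block. Apart from members, the 3 filled points are the receptors TNFRSF10C, FAS and EDA2R, all below 0.

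Downstream of the receptors, 29 of 31 listed signalling genes were tested, with a median log2 fold change of −0.02 (14 above and 15 below 0). Without the isolate 0 were called, and 3 higher and 5 lower genes passed 0.05 before adjustment. In the blocked fit 2 rose (6.90%) and 4 fell (13.8%), beside 6.68% and 7.84% of all genes, and before adjustment 28.3% of all genes passed 0.05. TRAF3, which restrains non-canonical NF-κB signalling, rose from 56.8 and 58.9 CPM to 96.9 and 89.1 CPM (log2 fold change 0.68, edgeR adjusted p = 0.0016 with the block and 0.030 without). MAP3K5 (ASK1), a kinase upstream of JNK and p38, rose from 80.8 and 95.7 CPM to 149 and 175 CPM (0.88, adjusted p = 3.6e-04 and 0.032). Both genes were higher in both isolates.

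TRAF5, an adaptor of TNFRSF4 and related receptors, had the largest fall of this list, from 31.0 and 17.3 CPM to 10.0 and 6.95 CPM (log2 fold change −1.47 with the block, edgeR adjusted p = 2.4e-04, and −1.50 and 0.059 without). XIAP, an inhibitor of caspases, fell from 43.8 and 50.9 CPM to 21.1 and 28.6 CPM (−0.94, adjusted p = 5.7e-04, and −0.93 and 0.046). TAB2, which links ubiquitin chains to the kinase TAK1, had a log2 fold change of −0.61 (adjusted p = 0.0024 with the block and 0.036 without), and CYLD, a deubiquitinase that dampens NF-κB signalling, one of −0.60 (0.0070 and 0.078). Both lay just past the fold threshold and were not called with RUVs and DESeq2. TRAF5, XIAP, TAB2 and CYLD hold 2, 4, 3 and 2 copies of GCAGTT in the 3′ UTR, TRAF3 holds 2 and MAP3K5 holds 0. Of the superfamily receptors called down with the block, TNFRSF10C and FAS hold 0 copies and EDA2R holds 1. Tested signalling genes with 0 or 1 copy, MAP3K5 among them, were not called down with the block. TRAF6 holds 5 copies, CFLAR 4 and TAB3 3, and these genes were not called in either direction. Their log2 fold changes were −0.12, −0.15 and 0.03, and they are named here after their values were seen. Their 3′ UTRs have 6069, 12714 and 3985 bases, beside 2244, 6791, 1894 and 5427 bases for TRAF5, XIAP, TAB2 and CYLD. The part of the word in any of these genes was not tested.

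Of 8 genes named as TNF-alpha-induced proteins, 7 were tested, with a median log2 fold change of 0.07. Without the isolate 0 were called, with 2 higher and 1 lower gene past 0.05 before adjustment (28.3% of all genes were), and in the blocked fit 2 rose and 0 fell, beside 6.68% and 7.84% of all genes. TNFAIP6 (TSG-6), a secreted hyaluronan-binding protein, was at 16.6 and 35.4 CPM in control and at 76.9 and 98.5 CPM in knockdown libraries (log2 fold change 1.75, standard error 0.37, edgeR adjusted p = 0.051, and 1.83 and 2.0e-04 with the block). TNFAIP3 (A20), an enzyme that limits NF-κB signalling, was at 114 and 192 CPM and at 265 and 325 CPM (0.95, standard error 0.27, adjusted p = 0.097, and 0.99 and 8.1e-04 with the block). Both were higher in both isolates, in libraries with at most 3 counts of TNF, and a part of TNF in these rises was not tested.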

How the data were processed

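RNA-seq counts were analysed from 4 IMR90 libraries, 2 control and 2 HMGB1 knockdown, grouped by their labels. The authors prepared TruSeq libraries from poly(A) RNA, mapped paired reads to hg19 with STAR at default settings and deposited unique read counts per gene from featureCounts; tool versions, the strand setting and the counting of pairs are not given in the sources used here. Without the strand setting, reads of a gene and of an antisense partner cannot be told apart. Ensembl identifiers were matched to symbols, and all 10 members had a row on a primary chromosome, none sharing exonic bases with another gene.

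Genes were kept with filterByExpr (15398) and tested with edgeR 4.0.16 (glmQLFit, glmQLFTest, TMM, R 4.3.3) and Benjamini-Hochberg adjustment over all of them. The fit took group only, and adding the isolate as a replicate block was an alternative, beside DESeq2 1.42.0, RUVs with 1 factor, other filters and scaling, and leaving out each library. Same-numbered libraries came from the same isolate, per the labels, and their deviations went together (r = 0.46 across 15398 genes), so blocked values stand beside the results. With isolate and group both fitted to 4 libraries, little is left to measure a gene's own spread. Blocked p-values therefore lean heavily on the spread estimated across genes. Standard errors come from the log2 fold change and the F statistic. The edgeR steps were run on simulated data with the same spread set for every gene. That run checks the steps only and does not speak for the p-values of these libraries. With 2 libraries against 2, an exact permutation test of a single value cannot go below p = 0.333, and none is given. The labels tie the libraries to 2 isolates, not to separate repeats of a transfection, so p-values speak at most for the spread between these libraries.

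The members and gene lists were chosen with earlier results of these data known. Named genes were the members, HMGB1, the members' binding partners, and from each wider list up to 6 genes called in either edgeR fit and changed alike in both isolates. 3′ UTRs were the longest per gene in GENCODE v44 lifted to GRCh37.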

Additional observations from a re-analysis of the deposited data

Results flagged for a closer look

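TNFSF9 was the 1 member whose isolates moved in opposite directions after knockdown. Its log2 ratio of knockdown to control was 0.51 in I90-10 (counting interval −0.52 to 1.57) and −0.24 in I90-79 (−1.08 to 0.58), from 15 and 21 counts in the first isolate and 32 and 23 in the second. Both intervals include 0 and overlap each other, and the difference between the isolates was not tested.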

How the results depend on the processing

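HMGB1 kept its direction and its call under every alternative but the 2 that left out a knockdown library (log2 fold change −3.77 to −3.38 over the leave-one-out fits, −3.47 without knockdown replicate 1 and −3.71 without knockdown replicate 2). Members called up went from 0 to 2 with no filter on low counts, with DESeq2, with RUVs and DESeq2 and with the replicate block, and to 1 at an adjusted p below 0.05, and members called down from 0 to 1 under the same settings except the looser p. Leaving out 1 library leaves 1 in its group, so calls of listed genes from those fits are not counted here. Without control replicate 1 the log2 fold changes of TNFSF4, TNFSF15 and TNFRSF21 were −2.85, 1.52 and 0.70. Without control replicate 2 they were −4.41, 2.47 and 1.26. Without knockdown replicate 1 they were −5.11, 2.07 and 0.93, and without knockdown replicate 2 −3.15, 1.76 and 0.98. The stricter filter, DESeq2's size factors in edgeR and no fold threshold called 0 members.

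TNFSF4, TNFSF15, TNFRSF21, TNFSF10, TNFRSF1A, TNFRSF1B and TNFRSF11B kept their direction in all 10 alternatives each. The log2 fold change of TNFSF4 ran from −5.11 to −2.85, TNFSF15 from 1.52 to 2.47 and TNFRSF21 from 0.70 to 1.26. Their lowest edgeR adjusted p, 6.6e-83, 3.6e-26 and 9.0e-08, came from the fit with no filter on low counts. With the filter the same fit gave 0.050, 0.033 and 0.050, so the lowest ones say little of the spread between the libraries. RUVs and DESeq2 gave −3.02 for TNFSF4, and −0.092 for TNFSF9 and −0.070 for TNFSF13B, both reversed. TNFSF9 was also reversed without control replicate 1 (−0.25, the lowest, with 0.52 the highest), and TNFSF13B without control replicate 1 (−0.079) and without knockdown replicate 2 (−0.05; highest 0.54). Both genes rest on fewer than 60 counts a library; the cause was not tested.

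Of the other superfamily genes, 3 were called down with no filter, DESeq2, RUVs and DESeq2, the replicate block and an adjusted p below 0.05. Signalling genes called up numbered 2 under these 5 settings. Those called down numbered 3 with no filter, 3 with DESeq2, 2 with RUVs and DESeq2, 4 with the replicate block and 2 at the looser p. TNF-alpha-induced protein genes called up numbered 2 with no filter, DESeq2, RUVs and DESeq2 and the replicate block. Over all genes, calls up and down were 10 and 21 in the fit without the isolate, 1118 and 1275 with no filter, 725 and 817 with DESeq2, 761 and 831 with RUVs and DESeq2, 1028 and 1207 with the replicate block, and 575 and 668 at an adjusted p below 0.05; the cause of the gap was not tested. Depth limited TNF, TNFSF9, TNFSF10 and TNFSF13B, whose counts were at most 56 in any library.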
